A study of Gallus gallus with 15 samples.

Results

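The 100 most abundant transcripts of the hen's germinal disc region are described here. They are the genes of highest mean CPM (the count divided by the library's total count and multiplied by 1e6) over 15 RNA sequencing libraries, taken from a table of 24881 gene identifiers. The 100 make up 0.402% of the identifiers in the table and 0.701% of the 14260 genes with enough reads to be tested. All 100 passed the low-count filter. Because they were picked by their read level, that level is given as a description and carries no test. Counts were not divided by transcript length, which is not given in the sources used here. An order of abundance is therefore an order of reads, and a long transcript gives more reads than a short one present in as many copies.

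All groups were White Leghorn laying hens, and every hen had an injection of oil; the labels name no genotype beyond the breed. The corticosterone group received 1.5 mg of this steroid in 0.5 ml of peanut oil, the testosterone group received 1.5 mg of that androgen in the same volume, and the control group received the oil alone. Hens were injected 5 h before the predicted ovulation. The germinal disc region of the largest preovulatory (F1) follicle was collected after about 1.5 h, which is 3.5 h ahead of ovulation. Each group had 5 libraries, and each library came from a pool of hens. The series design gives 8 hens per pool and the extraction protocol gives 9 samples per pool, so the number is uncertain. Hen ages are not given in the labels.

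In a bird's follicle the oocyte's chromosomes lie in the germinal disc, a small cytoplasmic area on the yolk surface. A growing oocyte stores messenger RNA made in the ovary, and this store carries the egg through meiosis and the first divisions of the embryo. The disc lies under granulosa cells, the steroid-producing layer of the follicle wall, and a dissected disc region can carry them. Corticosterone is the main glucocorticoid of birds. Both steroids act largely through nuclear receptors that alter transcription, and the study asked whether they affect genes that control how chromosomes segregate.

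The files give Ensembl chicken gene identifiers without names, and 0 of the 100 matched the reference table used here (assembly bGalGal1.mat.broiler.GRCg7b). The genes are therefore given by identifier or by rank of abundance, no role is assigned to any of them, and the labelled tissue could not be checked against marker genes. In such pooled tissue, fewer cells of a type and less RNA per cell cannot be told apart.

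Total counts ran from 24550108 to 33795073 in 14 libraries and came to 12913729 in testosterone replicate 5. Corticosterone replicates 1 and 2 and testosterone replicate 2 stood apart from the rest, as 27, 24 and 11 of their genes exceeded the median library by 4-fold or more. Control replicate 1 had 2 such genes and the other libraries had 0. None of the 100 transcripts was among these genes in any library. Even the least-read member in the least-read library had 8307 counts, where counting error alone gives a coefficient of variation (CV, the SD as a percent of the mean) of 1.10%. The series design calls the 5 pools of a group biological replicates, and p-values measure the spread between such pools, not between single hens.

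Read abundance fell steeply over the first ranks and slowly after them. The leading transcript, ENSGALG00000009856, averaged 21513 ± 1157 CPM (SD, n = 15), followed by ENSGALG00000001559 at 20277 ± 2394 CPM and ENSGALG00000032142 at 11813 ± 739.9 CPM. ENSGALG00000003578 was next at 9612 CPM, ahead of ENSGALG00000044745 at 8285 CPM. Ranks 6 to 10 were held by ENSGALG00000035334, ENSGALG00000010237, ENSGALG00000032456, ENSGALG00000032079 and ENSGALG00000029500, with means between 6666 and 5404 CPM. Of the 100, 11 exceeded 5000 CPM, 32 exceeded 2000 CPM and 32 lay under 1200 CPM. Their median was 1520.4 CPM, against 19.0 CPM over all genes tested. The highest mean was 23.8 times the lowest of the 100.

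The edge of the group fell in a flat stretch of the ranking. ENSGALG00000033884 and ENSGALG00000015110, at ranks 99 and 100, had 911 and 903 CPM. Just outside, ENSGALG00000015770 and ENSGALG00000042458 had 902 and 901 CPM. Those outside were among the first 100 of 9 and 10 single libraries, and those inside among the first 100 of 6 and 9. These means differ by less than their spread between libraries, whereas 97 of the 100 were also chosen when only the control libraries were ranked.

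**Figure D1:**
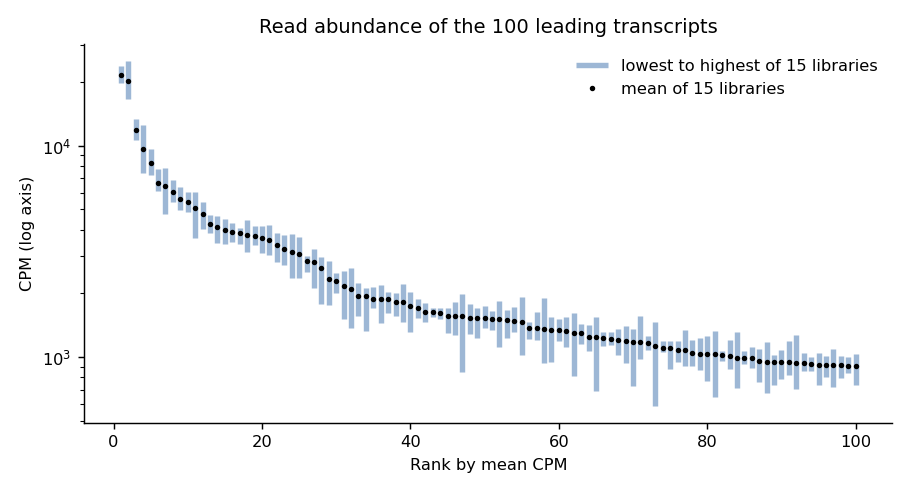
Mean CPM of the 100 transcripts (dots) by rank, with the lowest to highest of 15 libraries (bars), on a log axis. The first 11 exceed 5000 CPM, and the curve is nearly flat at the edge of the group, where ranks 99 and 100 have 911 and 903 CPM.

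Together the 100 transcripts held 26.4% of all counts, and 708 genes were needed to reach 50%. The leading transcript alone took 2.15%, the first 10 took 10.2% and the first 50 took 20.7%. In corticosterone replicates 1 to 5 the 100 held 24.9%, 24.1%, 26.2%, 24.95% and 28.0% of counts. In testosterone replicates 1 to 5 they held 26.2%, 26.1%, 27.0%, 27.7% and 26.3%, and in control replicates 1 to 5 they held 28.4%, 27.1%, 25.9%, 25.8% and 27.0%. The ranges of the groups overlapped, and corticosterone libraries held both the lowest share and the second highest. The group means were 25.6 ± 1.53% after corticosterone, 26.7 ± 0.712% after testosterone and 26.8 ± 1.04% in controls (SD, n = 5 each).

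**Figure D2:**
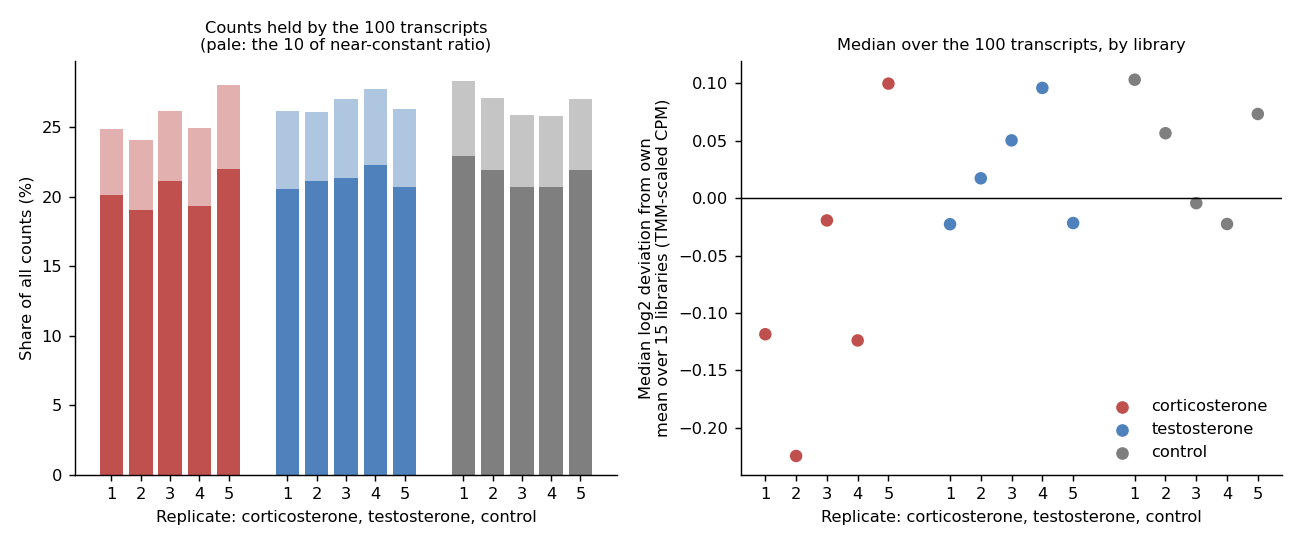
Left, percent of all counts held by the 100 transcripts in each library, with the pale part showing the 10 transcripts of near-constant ratio. Right, the median over the 100 transcripts of the log2 deviation of TMM-scaled CPM from each transcript's own mean over 15 libraries. Corticosterone replicate 2 is lowest in both panels, at 24.1% and -0.22.

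The list of abundant transcripts was largely the same in every pool. It was drawn from the mean of these same libraries, so part of this agreement is built in. In each library, between 90 and 96 of the 100 were also among that library's own first 100, and 74 were so in all 15 libraries. A further 24 were in the first 100 of 8 to 14 libraries and 2 in fewer than 8. Over all libraries, 124 different genes entered a first 100, so 24 genes outside the group did so at least once. Across the 100 transcripts, Spearman's rho of CPM between libraries had a median of 0.952 over the 105 pairs of libraries, with a range of 0.879 to 0.983. The median was 0.953 for pairs within a group and 0.951 for pairs between groups. Genes are not independent replicates, and the members share each library's depth and preparation. The lowest value belonged to corticosterone replicate 2 with control replicate 1.

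Stability of rank depended on position. Members at ranks 1 to 10 moved over a median of 1 place between libraries and at most 5, and the lowest place any of them took was 11. Members at ranks 11 to 25 moved over a median of 7 places, those at 26 to 50 over 15, those at 51 to 75 over 31 and those at 76 to 100 over 35. All 25 of the first members were in the first 100 of every library, whereas only 5 of the last 25 were. The largest movement, chosen after its values were seen, was that of ENSGALG00000036033, which ranked between 56 and 176. Of the 99 pairs of neighbours in the ranking, 5 kept their order in all 15 libraries, and 75 kept it in only 5 to 10 libraries, so most neighbouring ranks are not distinct.

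**Figure D3:**
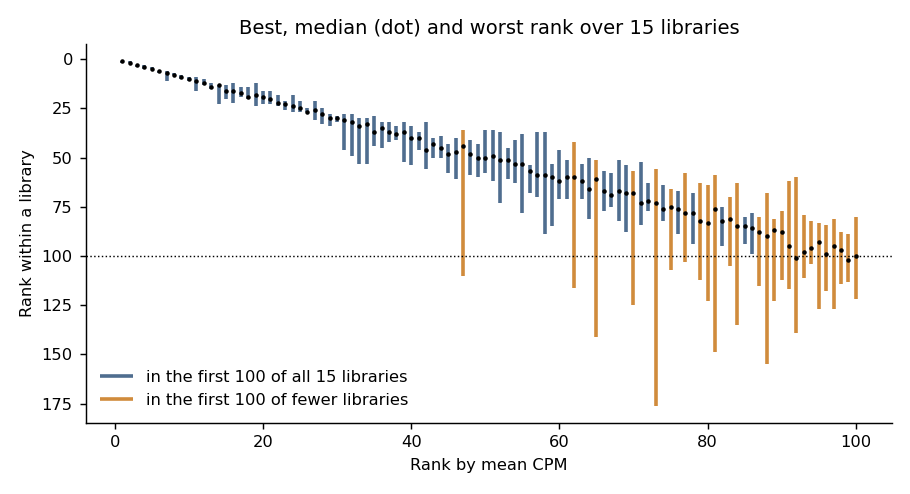
Best to worst rank (lines) and median rank (dots) of each of the 100 transcripts within the 15 libraries, against rank by mean CPM. Blue lines mark the 74 in the first 100 of all libraries, orange lines the rest, and the dotted line marks rank 100. Lines lengthen down the ranking, up to ENSGALG00000036033 between ranks 56 and 176.

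Levels below are CPM after scaling by TMM, a method that sets library totals so that most genes show no difference between libraries. The leading transcript, ENSGALG00000009856, stood at 21726, 19502, 21119, 19081 and 21706 CPM in corticosterone replicates 1 to 5, at 20945, 21558, 20964, 22241 and 19751 CPM in testosterone replicates and at 23982, 23106, 22119.7, 20931 and 24423 CPM in controls. It was in first place in 12 libraries. ENSGALG00000001559 took that place in corticosterone replicate 5, testosterone replicate 5 and control replicate 1, 1 library of each group. Its levels were 18353, 15762, 20472, 16061 and 23263 CPM after corticosterone, 19684, 20262, 19816, 22079 and 25112 CPM after testosterone and 21137, 18629.9, 19353 and 19741 CPM in control replicates 2 to 5, with 25283 CPM in control replicate 1. The leading pair thus differ by less than the spread between pools, and the groups overlapped for both. Against control, the log2 fold change of ENSGALG00000009856 was -0.15 ± 0.071 after corticosterone (SE, adjusted p of 0.523 by edgeR) and -0.12 ± 0.071 after testosterone (SE, adjusted p of 0.999 by edgeR).

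ENSGALG00000003578, at rank 4, was the most variable of the first 10, with a CV of 17.8% over the 15 libraries. It had 7578, 7681, 9195, 7869 and 9545 CPM after corticosterone, 9700.5, 9585, 9698, 12924 and 9214 CPM after testosterone and 12955, 10526, 7479.5, 9518 and 11267 CPM in controls. Its lowest and highest values were both controls. After corticosterone its log2 fold change against control was -0.31 ± 0.127 (SE, unadjusted p of 0.027 and adjusted p of 0.487 by edgeR). Against testosterone it was -0.29 ± 0.127 (SE, unadjusted p of 0.036 and adjusted p of 0.766 by edgeR). The leading transcript was the steadiest of the first 10, with a CV of 7.04%.

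A set of 10 members kept nearly constant proportions to each other in every library, whichever treatment the hens had received. The ratio of ENSGALG00000032456 to ENSGALG00000032142, at ranks 8 and 3, was 0.512 ± 0.00860 (SD, n = 15) and stayed between 0.491 and 0.524. That is a CV of 1.68%, the lowest among all 4950 pairs of members, whose median was 12.03%. The ratio of ENSGALG00000029500 to ENSGALG00000035334, at ranks 10 and 6, was 0.811 ± 0.0164 with a CV of 2.02%. For contrast, the ratio of ENSGALG00000003578 to ENSGALG00000032142 ranged from 0.636 to 1.06, with a CV of 15.4%. That is the highest CV among the 45 pairs of the first 10 members, whose median was 11.2%. A ratio within a library does not depend on how libraries are scaled.

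Pairs with a ratio CV under 4% numbered 54, and 35 of them joined this set, which holds the members at ranks 3, 6, 8, 9, 10, 12, 13, 15, 20 and 93. Within it, the ratio CV had a median of 3.33% and a maximum of 5.18% over 45 pairs. Ratios of its genes to the other 90 members had a median CV of 10.95% and a minimum of 6.12%. The limit of 4% and the set were chosen after the values were seen, so no test applies. With limits of 3% and 5%, 25 and 120 pairs qualified. Whether such genes overlap in the genome or share reads was not tested, since the sources used here give no positions for them.

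The 10 together took 5.31% of all counts. Their summed share was 4.72%, 5.05%, 5.00%, 5.62% and 6.01% in corticosterone replicates 1 to 5, 5.60%, 4.96%, 5.70%, 5.46% and 5.61% in testosterone replicates 1 to 5, and 5.41%, 5.14%, 5.20%, 5.07% and 5.13% in control replicates 1 to 5. Corticosterone libraries were both the lowest and the highest of the 15. The mean was 5.28 ± 0.522% after corticosterone, 5.47 ± 0.294% after testosterone and 5.19 ± 0.129% in controls (SD, n = 5 each). The 10 were chosen for near-constant ratios in these same libraries, so a shared direction largely follows from that choice. The counts of genes that follow are therefore not separate results. Against control, all 10 genes had log2 fold changes above 0 after testosterone, with a median of 0.08 and a lowest unadjusted edgeR p of 0.172. After corticosterone, 9 of the 10 were below 0 against control with TMM scaling, with a median of -0.03 and a lowest unadjusted edgeR p of 0.568, but 0 of the 10 were lower by mean CPM of the library total, so this direction depends on the scaling. Against testosterone, all 10 were lower after corticosterone on either scale, with a median log2 fold change of -0.09 (TMM) and a lowest unadjusted edgeR p of 0.1004. None of the 10 passed the test in any of the 3 comparisons.

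**Figure D4:**
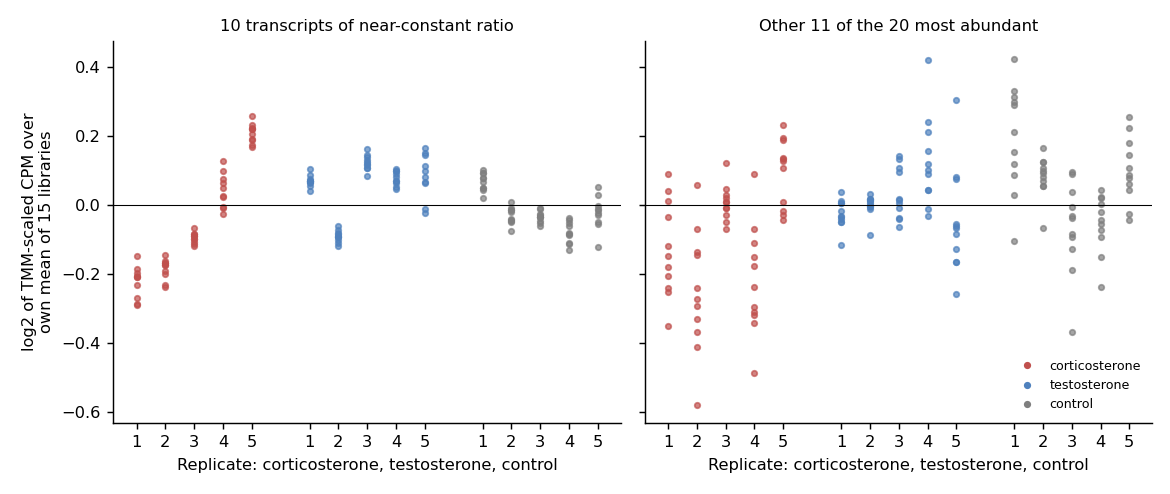
log2 of TMM-scaled CPM over each transcript's own mean of 15 libraries, by library. Left, the 10 transcripts of near-constant ratio lie close together in every library; right, the other 11 of the 20 most abundant are more scattered.

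Variation between pools was small for most members but differed between groups. The median CV of the 100 was 12.4% within corticosterone, 6.42% within testosterone and 6.66% within control libraries. Over all genes tested the corresponding medians were 9.98%, 9.70% and 9.20%. By this CV the members were less variable than the typical gene in the testosterone and control pools and more variable in the corticosterone pools. The CV includes counting error, which is larger for genes with fewer reads. The spread beyond counting error, estimated by edgeR around the group means, had a median of 9.23% for the members. Over all genes tested it was 9.54%. This estimate is a single value per gene for all groups together, drawn toward a trend shared by all genes. It therefore does not show differences between groups, and the medians are partly made alike by the method. With libraries scaled by total count alone, the members' medians were 10.2% after corticosterone, 6.33% after testosterone and 6.10% in controls, and the corticosterone median then lay below the 10.6% of all genes tested in that group. These differences in spread were not tested. The highest library exceeded the lowest by a median factor of 1.43 over the 100, and by more than 2-fold in 9 of them.

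The steadiest member was ENSGALG00000009086, at rank 74, with a CV of 2.99% over 15 libraries. It had 1068, 1108, 1121, 1099 and 1077 CPM after corticosterone, 1059.5, 1097, 1165, 1094 and 1102 CPM after testosterone and 1087, 1091, 1060.3, 1163 and 1138 CPM in controls. Next came ENSGALG00000002377 at 3.33% and ENSGALG00000002139 at 3.77%. For these 3 genes the group means lay within about the SD of any group, for example 1219 ± 54.3, 1217 ± 39.4 and 1215 ± 35.4 CPM (SD, n = 5 each) for ENSGALG00000002377 after corticosterone, after testosterone and in controls.

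The most variable members were ENSGALG00000044239 and ENSGALG00000037976, each with a CV of 22.1%, and ENSGALG00000046616 with 21.7%. ENSGALG00000044239 had 1358, 1039, 935, 1042 and 1517 CPM after corticosterone, 1384, 1242, 1264, 1957 and 1049 CPM after testosterone and 1946, 1448, 1308, 1452 and 1522 CPM in controls. Its highest values were in testosterone replicate 4 and control replicate 1. Against control its log2 fold change was -0.38 ± 0.167 after corticosterone (SE, unadjusted p of 0.037 and adjusted p of 0.503 by edgeR). After testosterone it was -0.15 ± 0.167 (SE, adjusted p of 0.999 by edgeR). ENSGALG00000037976 had 1516, 1292, 1649, 1230.5 and 1968 CPM after corticosterone, 846, 1793, 2025, 1649 and 1082 CPM after testosterone and 1646, 1959.6, 1682, 1308 and 1749 CPM in controls. Its lowest value, 846 CPM, was in testosterone replicate 1, and that library also had the lowest value of ENSGALG00000036033, at 588 CPM. The groups overlapped for each of these genes.

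With corticosterone set against control, no member passed the threshold of an adjusted p of 0.05, and their direction was mostly downward. edgeR called 0 of the 100, as it called 0% of all genes tested, with a smallest adjusted p of 0.447 among the members. limma voom called 0 and DESeq2 called 2, both lower, ENSGALG00000037375 and the member at rank 86, the second chosen after its values were seen. In all, DESeq2 called 13 of the 2454 genes to which it gave an adjusted p, or 0.53%. An unadjusted p under 0.05 was found for 23 members, all of them lower with corticosterone, where 9.44% of all genes tested reached that level, 5.7% lower and 3.74% higher. The log2 fold change was below 0 for 86 of the 100, against 50.7% of all genes tested. Its median was -0.12, a factor of 0.920, against a median of -0.0019 over all genes tested, and its range was -0.44 to 0.14.

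This downward direction was shared with other abundant genes. At ranks 101 to 200 of mean CPM, 80 of 100 genes were below 0 and 22 had an unadjusted p under 0.05, 21 of them lower. At ranks 201 to 500 the log2 fold change was below 0 for 67.0% of genes, at 501 to 1000 for 59.2% and at 1001 to 2000 for 52.1%. An unadjusted p under 0.05 by edgeR was found for 21.7%, 14.8% and 13.3% of genes in these bands. The share below 0 was thus largest in the most abundant genes and decreased down the ranking. With total-count scaling 73 members were below 0, with a median of -0.07 against 0.05 over all genes tested. On that scale 9512 of the 14260 genes tested were above 0. Of the members, 18 had an unadjusted p under 0.05, 17 lower and 1 higher. Of all genes 12.3% did, 2.8% lower and 9.47% higher.

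The pools did not contribute equally. Relative to each transcript's control mean, the median log2 difference over the 100 was -0.17, -0.29, -0.06, -0.19 and 0.03 in corticosterone replicates 1 to 5. Corticosterone replicate 2 had 75 members below the lowest control, whereas corticosterone replicate 5 had 8 below the lowest control and 23 above the highest. Without corticosterone replicates 1 and 2, 70 members were below 0, with a median of -0.05, where 6990 of 14436 genes tested were above 0. In that setting 8 members had an unadjusted p under 0.05, 6 lower and 2 higher, close to the 6.91% of all genes tested. Leaving out control replicate 1 turned the count of 23 into 10, beside 5.73% of all genes tested. Leaving out corticosterone replicate 2 gave 14 members beside 6.07% of all genes, and corticosterone replicate 4 gave 12 beside 7.65%. Without corticosterone replicate 5 the count was 48, beside 14.2% of all genes. The TMM factor was highest in corticosterone replicate 2, at 1.07, the library where members were lowest. A higher factor lowers TMM-scaled CPM. Relative to each transcript's mean over 15 libraries, that library's median log2 deviation was -0.22 with TMM and -0.12 with total-count scaling. With total-count scaling, corticosterone replicates 1, 3, 4 and 5 stood at -0.06, -0.01, -0.07 and 0.07.

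ENSGALG00000037375, at rank 53, had the smallest p. It had 1328, 1139.6, 1406, 1355 and 1452 CPM after corticosterone and 1679, 1553, 1541, 1526 and 1692 CPM in controls. All corticosterone values lay below all control values. The corticosterone libraries averaged 1336 ± 120.3 CPM and the control libraries 1598 ± 80.2 CPM (SD, n = 5 each). This gave a log2 fold change of -0.26 ± 0.067 (SE; adjusted p = 0.447 with edgeR). Over the alternatives the adjusted p ran from 0.035 with DESeq2 to 0.844. The groups did not overlap for 2 members, both lower, where 1.25% of all genes tested did not overlap, 0.666% lower and 0.582% higher. The other, chosen after its values were seen, was the member at rank 85, with 863 to 999 CPM after corticosterone and 1009.6 to 1092 CPM in controls.

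Among the 14 members with a log2 fold change above 0, ENSGALG00000004161, at rank 33, had the smallest p. It had 1927, 2031, 2139, 2179 and 1917 CPM after corticosterone and 1611, 1883, 1994, 2011 and 1797 CPM in controls. The ranges overlapped. Its log2 fold change stood at 0.13 ± 0.066 (SE; adjusted p = 0.535 with edgeR).

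**Figure D5:**
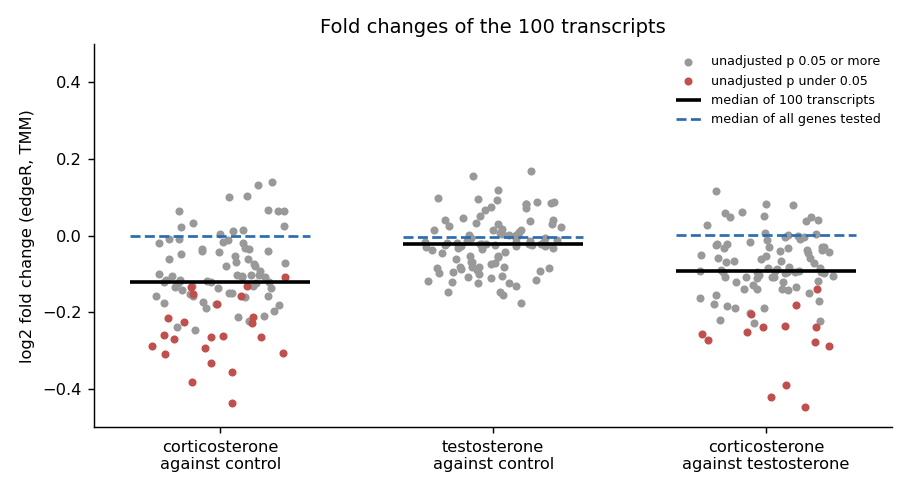
log2 fold changes of the 100 transcripts (points) in the 3 comparisons, red where the unadjusted edgeR p was under 0.05, with the median of the 100 (black) and of all genes tested (dashed blue). The medians of the 100 are -0.12, -0.02 and -0.09.

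With testosterone set against control, no member passed the threshold and the fold changes lay near 0. Controls are shared with the corticosterone comparison. edgeR called 0 of the 100, as it called 0% of all genes tested, with a smallest adjusted p of 0.999 among the members, and limma voom and DESeq2 called 0 members and 0% of all genes. At an unadjusted p under 0.05 edgeR gave 0 members, where 3.4% of all genes tested reached that level, 1.86% higher and 1.54% lower. On the same threshold limma voom gave 1 member, beside 3.31% of all genes, and DESeq2 gave 2, beside 2.39%. The log2 fold change was below 0 for 64 members, against 51.7% of all genes tested. Its median was -0.02 and its range -0.17 to 0.17, and 83 of the 100 lay within 0.1 of 0. The share below 0 was alike at ranks 101 to 200 of mean CPM, with 65 of 100 genes. At ranks 201 to 500 it was 51.7%. Total-count scaling also gave 0 members at an unadjusted p under 0.05, where 2.92% of all genes did, 1.54% higher and 1.38% lower.

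The transcript at rank 16 was the only member whose groups did not overlap, where 0.638% of all genes tested did not, 0.365% higher and 0.273% lower. It had 3819.8, 3918, 3949.9, 3821 and 3486 CPM after testosterone and 4149, 4059, 4175, 3961 and 4147 CPM in controls. This is a log2 fold change of -0.11 ± 0.056 (SE; adjusted p = 0.999 with edgeR). The transcript was chosen after its values were seen, and it had the smallest unadjusted edgeR p of the members here, 0.068. After corticosterone it was lower than control by a like amount, with a log2 fold change of -0.10 ± 0.056 (SE; adjusted p = 0.552 with edgeR). Upwards, ENSGALG00000004620, at rank 75, had the smallest p. It had 1132, 1118, 1141, 1209 and 1167 CPM after testosterone and 911, 1074, 1092, 1174 and 1064 CPM in controls, which overlapped. This is a log2 fold change of 0.12 ± 0.062 (SE; adjusted p = 0.999 with edgeR).

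Corticosterone against testosterone compared the hormones directly. These libraries also enter the comparisons with control, so the 3 results are not independent. edgeR called 0 of the 100, as it called 0% of all genes tested, with a smallest adjusted p of 0.296 among the members. limma voom called 0 and DESeq2 called 2, ENSGALG00000004310 and ENSGALG00000037375, both lower after corticosterone. In all, DESeq2 called 56 of the 9309 genes to which it gave an adjusted p, or 0.602%. An unadjusted p under 0.05 was found for 14 members, all of them lower with corticosterone, where 6.37% of all genes tested reached that level, 4.31% lower and 2.06% higher. The log2 fold change was below 0 for 86 members, against 49.3% of all genes tested, with a median of -0.09 and a range of -0.45 to 0.12. With total-count scaling 67 members were below 0, where 9872 of the 14260 genes tested were above 0. The median on that scale was -0.04 against 0.05 over all genes tested. On it, 12 members had an unadjusted p under 0.05, all lower, where 7.9% of all genes did, 2.5% lower and 5.4% higher. At ranks 101 to 200, 77 of 100 genes were below 0 and 17 had an unadjusted p under 0.05. At ranks 201 to 500 the shares of genes were 68.3% and 13%. Leaving out corticosterone replicate 5 turned the count of 14 into 44, beside 9.56% of all genes tested. Leaving out corticosterone replicate 1 gave 8 members, beside 5.03% of all genes. Leaving out corticosterone replicate 2 gave 9 beside 4.26%, and testosterone replicate 4 gave 9 beside 4.54%. Without corticosterone replicates 1 and 2 the count was 6 beside 3.95%. In that setting 66 members were below 0, where 6948 of 14436 genes tested were above 0.

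ENSGALG00000004310, at rank 32, had the smallest p. It had 1539, 1271, 2059.8, 1956 and 1934 CPM after corticosterone and 2028, 2366, 2505, 2720.5 and 2326 CPM after testosterone. The ranges met only through corticosterone replicate 3 and testosterone replicate 1. The corticosterone mean was 1752 ± 334 CPM and the testosterone mean 2389 ± 254 CPM, with controls between them at 2146 ± 189.6 CPM (SD, n = 5 each). This is a log2 fold change of -0.45 ± 0.115 (SE; adjusted p = 0.296 with edgeR). Over the alternatives the adjusted p ran from 0.029 with DESeq2 to 1.000. ENSGALG00000037375 was the only member whose groups did not overlap here, where 1.19% of all genes tested did not, 0.877% lower and 0.309% higher. Its values were 1328, 1139.6, 1406, 1355 and 1452 CPM after corticosterone and 1564, 1515, 1611, 1727 and 1467 CPM after testosterone.

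The 95% interval of the log2 fold change lay within 1.5-fold either way for 96 members in corticosterone against control, 98 in testosterone against control and 97 in corticosterone against testosterone. The corresponding shares of all genes tested were 82.3%, 83.4% and 82.1%. It lay within 1.2-fold for 37, 65 and 43 members in the same comparisons, where 44.5%, 49.7% and 47.6% of all genes tested did. At this narrower limit the members' share was below that of all genes in both comparisons with corticosterone. The interval lay wholly beyond 1.2-fold for 0 members in each. The median SE of the log2 fold change was 0.082 in every comparison.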

How the data were processed

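Raw counts per Ensembl gene identifier were deposited by the authors in a single table with a column for each library. All 15 columns matched a sample by label. Per the submitters' processing notes, TopHat2 2.0.14 and HTSeq 0.6.1p1 were used, and the kit was strand-specific per the labels' protocols. Genome build, annotation and strand setting were not given in the sources used here, so overlapping, antisense or near-identical genes may share or lose reads. No batch is named in the labels.

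CPM by library total chose and ranked the members. Genes passing edgeR's filterByExpr (99.95% of counts) were scaled by TMM. The fit was made with edgeR 4.0.16 under R 4.3.3 (robust quasi-likelihood, 1 mean per group, 12 residual degrees of freedom), with Benjamini-Hochberg adjustment over 14260 genes. Standard errors and intervals come from the quasi-likelihood F. DESeq2 1.42.0 (on all genes, with its own filtering), limma 3.58.1 voom, other scalings, no filter, a replicate block and left-out libraries were alternatives. No 2 libraries were alike within counting noise (chi-square per degree of freedom from 5.54 to 48.8). 

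The members and lists were chosen with earlier results of these data known. Symbol lists by role had been drawn up but could not be applied. Named were the 10 most abundant, the 3 most and 3 least variable and ranks 99 to 102. The 3 members of smallest p in each direction and comparison were eligible. Of these at most 2 identifiers per direction are printed over all comparisons together. No member higher after corticosterone is described for corticosterone against testosterone.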

Additional observations from a re-analysis of the deposited data

Results flagged for a closer look

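Among 84 groups of 5 values examined for a library far from the others of its group, 4 were found, and chance gives about 4.2 (1 in 20). Testosterone replicate 5 had a total count of 12.9 × 1e6 reads, against 25.98 × 1e6 in the next lowest testosterone library. Testosterone replicate 2 was the lowest of its group for ENSGALG00000032142, a member of the set of near-constant ratio, at 11107 CPM against 12364 CPM in the next. Testosterone replicate 4 was the highest of its group for ENSGALG00000003578, at 12924 CPM against 9700.5 CPM in the next, and the lowest for ENSGALG00000004161, at 1803 CPM against 1965 CPM in the next. No explanation of these values was tested. None of the 24 genes examined had all corticosterone libraries on one side of the control mean and all testosterone libraries on the other.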

How the results depend on the processing

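No member was called by any of the 24 alternatives for testosterone against control. For each comparison with corticosterone the same was true of 23 of 24, and DESeq2 called 2 members in each. Beside these stood 0.53% of genes with an adjusted p against control and 0.602% against testosterone. Of all genes tested, corticosterone against testosterone had 1 called with no filter and 4 with the replicate block. In that comparison 2 were called without control replicate 1 and 5 without control replicate 4. Leaving out corticosterone replicate 5 gave 2, and testosterone replicate 2 gave 1. Among the 24 was a ranking by TMM-scaled CPM that picked the same 100 members and used the main fit. Its result was therefore fixed in advance. At an unadjusted p under 0.05, leaving out 1 library gave 10 to 48 members for corticosterone against control. It gave 0 to 2 for testosterone against control and 8 to 44 for corticosterone against testosterone. Beside the 10 and 48 stood 5.73% and 14.2% of all genes tested, and beside the 8 and 44 stood 5.03% and 9.56%. The 2, found without testosterone replicate 4, stood beside 626 of 14322 genes. Without corticosterone replicates 1 and 2 the counts were 8, 2 and 6, in the same order. Of 14436 genes tested, 997, 581 and 570 reached that level. Without these replicates and testosterone replicate 2 the counts were 7, 2 and 4, where 954, 597 and 579 of 14414 genes did. For testosterone against control DESeq2 gave 2 beside 2.39% of all genes, and limma voom gave 1 beside 3.31%. Over the 200 most abundant genes the share was 1.5%, beside 3.4% of all genes tested. The cause was not tested.

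With the replicate number as a block, 21, 2 and 13 members had an unadjusted p under 0.05, in the same order. Of the 14260 genes tested, 1305 reached that level for corticosterone against control and 904 for corticosterone against testosterone. The members' share was above that of all genes tested in both of these comparisons. For testosterone against control it was below that of all genes tested. Same-numbered pools are not stated to be paired. Over the 15 pairs of pools with a common number, the correlation of deviations was -0.183 to 0.226, in 4 pairs above 0.1, and 0 of 15 libraries correlated best with their own number in both other groups.

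The mean share of counts stayed between 26.2% and 26.5% over all alternatives, and 74 to 76 members stayed in the first 100 of every library. Most of these alternatives left out 1 of the same 15 libraries, so such narrow ranges largely follow from the shared data. In single libraries the share ran from 24.1% to 28.4%. The median CV over 15 libraries was 9.99% and ran from 8.56% to 10.4% with 1 library left out, and it was 8.52% with total-count scaling. With the members ranked by median CPM, 99 of 100 were the same. Counting error is at most 1.10% for any member in any library, below the spread between pools.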

Other observations

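Besides the set of 10, pairs with a ratio CV under 4% joined another 25 members into 9 sets of 2 to 4 genes, so that 35 members had at least 1 near-constant partner. The closest such pair outside the set of 10 was at ranks 85 and 43, with a ratio of 0.606 ± 0.0155 (SD, n = 15) and a CV of 2.56%. ENSGALG00000002377 and ENSGALG00000009086, the steadiest members, formed a set of 2. ENSGALG00000032940 and ENSGALG00000036033, at ranks 65 and 73, formed another although both varied widely, and their lowest values were both in testosterone replicate 1. ENSGALG00000037375 and the member at rank 87 formed a set as well. These sets were chosen after the values were seen and carry no test. A low ratio CV can arise where both genes are steady on their own, so it does not by itself show that they vary together.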
